A study of Mus musculus with 15 samples.

Results

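The prostaglandin and leukotriene synthesis genes were taken as 8 members: Ptgs1, Ptgs2, Ptges, Hpgds, Alox5, Alox5ap, Alox15 and Ltc4s. A member was measured by its probe set, the group of array probes that reads 1 transcript cluster, if that probe set is annotated with this gene symbol alone, and by the one with the highest mean over all arrays where there were several. Of the 8, 7 had such a probe set, out of 22180 genes so covered, and all 7 were bright enough to be among the 14822 genes tested. Ptgs1, which encodes the constitutive cyclooxygenase, had none and was not analysed here. Alox5 and Alox5ap each had a second probe set, whose values are given beside the first.

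RNA of mouse myeloid cells was hybridised to 15 single-colour Affymetrix arrays, in 5 groups of 3, all from mice of the strain C57Bl/6. RB and GFW, which carry the same labels, are CD11b+CD34+ spleen cells negative for the lineage markers CD4, CD8, Ly6G, B220 and Ter119, sorted from mice given the granulocyte growth factor G-CSF. GFE is such cells after 3 days of culture with Flt3 ligand and SCF, and GFK is such cells, uncultured, from G-CSF treated mice labelled iNOS knockout. MDSC is Ly6C+CD11b+ suppressor cells grown from bone marrow with G-CSF, GM-CSF and IL-13. G-CSF is thus common to all 5 groups, given to the animals in 4 of them and to the culture in MDSC. The titles of the GFW, GFE and GFK samples begin alike, while those of RB and of MDSC begin otherwise, so in comparisons with RB or MDSC this prefix and the group cannot be told apart. The labels do not say that the 3 arrays of a group came from separate mice or cultures, or whether mice were pooled, so the p-values measure only how these samples scatter, and that scatter may be technical.

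Several features of the arrays stand beside every result below. The signal of Nos2, the gene named in the knockout label, was not lower on the arrays labelled knockout (8.84, 8.91 and 8.92 log2) than on the GFW arrays (8.09, 8.32 and 8.43), so "GFK" here means only the arrays with that label. Ly6g, the target of a lineage antibody, was bright on the GFW and GFK arrays (means of 12.19 and 12.08 log2) and not on the RB and MDSC arrays (6.28 and 5.80) or the GFE arrays (4.22). Cd34, on which the spleen cells were sorted, averaged 11.28 in GFE, 7.19 in GFW, 7.27 in GFK and 5.92 in RB. In MDSC, described by Ly6C and CD11b, it averaged 6.88, above RB. The mean of 10 neutrophil markers lay between 11.05 and 11.20 log2 on the GFW and GFK arrays, between 8.12 and 8.26 in RB, between 8.98 and 9.02 in MDSC, and between 5.47 and 5.70 in GFE. The mean of 9 monocyte markers lay between 11.15 and 11.31 in RB, with no other array above 8.15. The means of 10 macrophage markers spanned 6.14 to 8.75 log2 over the 15 arrays, lowest in GFE and highest in GFK, those of 6 platelet markers 5.50 to 6.17, and those of 7 lymphocyte markers 4.70 to 6.30. RB and GFW thus stand apart in spite of their shared labels and are never pooled here. In bulk RNA, fewer cells of a type and less RNA per cell cannot be told apart.

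Prostaglandins and leukotrienes are lipid mediators made from arachidonic acid, which phospholipases A2 release from membranes. Cyclooxygenases (Ptgs1 and Ptgs2) turn it into prostaglandin H2, from which terminal synthases make single prostaglandins: Ptges makes prostaglandin E2 and Hpgds, a glutathione-dependent enzyme known from mast cells and T helper cells, makes prostaglandin D2. In the other branch 5-lipoxygenase (Alox5), helped by the membrane protein FLAP (Alox5ap), makes leukotriene A4, which leukotriene A4 hydrolase (Lta4h) converts to leukotriene B4, a neutrophil attractant, and leukotriene C4 synthase (Ltc4s) to the cysteinyl leukotrienes. Alox15, the 12/15-lipoxygenase of mice, is known from macrophages and eosinophils. In suppressor cells, cyclooxygenase 2 and prostaglandin E2 are widely studied as regulators of T cells.

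Over the 5 groups the members separated into 3 kinds of profile. Ptgs2 was bright in all 4 spleen-derived groups and dim in MDSC. Alox5 and Alox5ap were brightest in GFW and GFK and dimmest after culture, and Hpgds and Ltc4s were highest in MDSC, next in cultured cells and lowest in RB. Ptges hardly varied, with group means between 5.92 and 6.33 log2, and Alox15 stayed within 5.21 to 6.36. Values are log2 signals, and the level of one gene's probes cannot be set against another's.

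**Figure D1:**
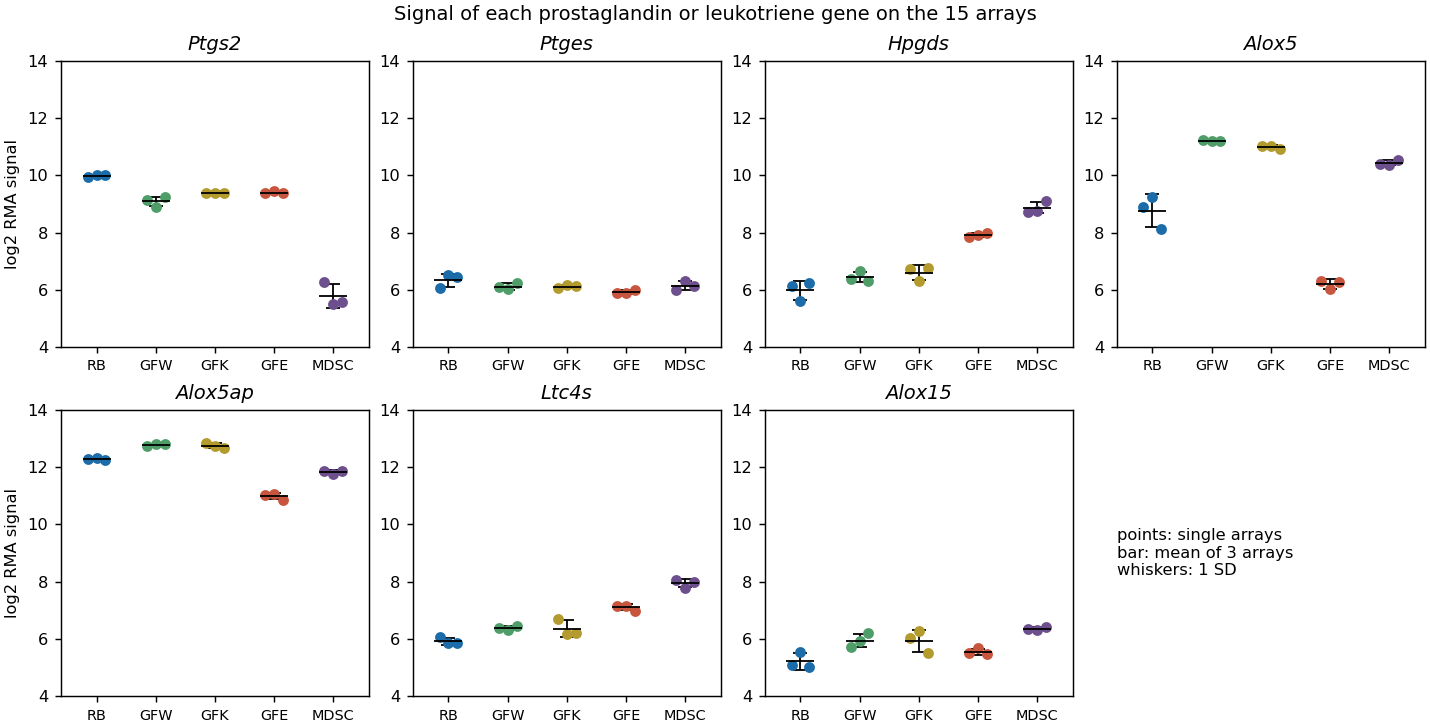
Log2 RMA signal (vertical axis) of the 7 measured genes on each of the 15 arrays, by group (horizontal axis), with points for single arrays, a bar for the mean of 3 arrays and whiskers of 1 SD. Ptgs2 is lowest in MDSC (5.49 to 6.26), Alox5 is lowest in GFE (6.02 to 6.30), and Hpgds and Ltc4s are highest in MDSC.

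The 4 members whose profiles differ most are shown here with their promoters, since they stand for the groups of genes described below: Ptgs2, Alox5, and the pair Hpgds and Ltc4s, which were both highest in MDSC, next in GFE and lowest in RB. The windows run from 250 bases before to 50 after the RefSeq start (GRCm38.p6), 6 of the 8 members were in that table, and capitals mark matches to the motifs searched, on either strand. The windows are chr1:150099781-150100080 on the + strand, chr6:116461129-116461428, chr6:65144681-65144980 and chr11:50238483-50238782, the last 3 on the - strand.
Ptgs2: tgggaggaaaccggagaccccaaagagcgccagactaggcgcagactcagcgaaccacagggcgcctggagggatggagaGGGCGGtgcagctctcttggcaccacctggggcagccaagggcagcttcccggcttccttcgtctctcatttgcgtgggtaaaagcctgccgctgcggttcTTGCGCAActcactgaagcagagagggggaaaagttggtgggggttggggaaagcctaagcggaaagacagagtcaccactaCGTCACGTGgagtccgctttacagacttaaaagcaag
Alox5: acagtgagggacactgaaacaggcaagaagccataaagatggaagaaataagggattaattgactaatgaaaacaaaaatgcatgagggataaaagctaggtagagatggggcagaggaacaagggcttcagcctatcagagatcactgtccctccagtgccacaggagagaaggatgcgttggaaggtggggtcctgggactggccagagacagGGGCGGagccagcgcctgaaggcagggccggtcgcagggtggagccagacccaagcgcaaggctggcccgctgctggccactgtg
Hpgds: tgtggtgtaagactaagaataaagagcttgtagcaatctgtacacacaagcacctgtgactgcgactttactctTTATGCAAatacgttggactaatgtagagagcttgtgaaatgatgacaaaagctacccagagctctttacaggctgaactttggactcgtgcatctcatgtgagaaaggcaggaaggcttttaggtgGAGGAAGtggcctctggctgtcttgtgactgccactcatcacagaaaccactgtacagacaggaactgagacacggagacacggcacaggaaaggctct
Ltc4s: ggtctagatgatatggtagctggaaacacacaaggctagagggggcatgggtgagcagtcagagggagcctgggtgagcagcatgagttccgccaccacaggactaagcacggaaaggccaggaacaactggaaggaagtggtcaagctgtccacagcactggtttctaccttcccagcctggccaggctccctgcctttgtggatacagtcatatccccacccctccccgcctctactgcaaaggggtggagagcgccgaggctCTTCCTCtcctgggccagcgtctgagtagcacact

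The motifs searched were the TATA box TATAAA, the GC box GGGCGG, the E box CACGTG, the short cyclic AMP response element TGACG, the C/EBP motif TTGCNNAA, the PU.1 motif GAGGAAG and the GATA motif AGATAA. Positions count bases from the RefSeq start. The Ptgs2 window held a GC box at -170, a C/EBP match at -69, and a short cyclic AMP response element at 14 that overlaps an E box at 17. The Alox5 window held a GC box at -35. The Hpgds window held a C/EBP match at -176 and a PU.1 match at -49, and the Ltc4s window a PU.1 match at 16. Of all 32851 windows of 300 bases in the table, 35.7% held the GC box, 7.15% the E box, 20.8% the short cyclic AMP response element, 10.8% the C/EBP motif, 13.6% the PU.1 motif, 13.6% the TATA box and 11.2% the GATA motif. The G and C content was 59.3% for Ptgs2, 55.7% for Alox5, 46.7% for Hpgds and 58.7% for Ltc4s, against a median of 52.7% over all windows. These matches describe the letters only, and binding was not measured here. The genes themselves span chr1:150100031-150108234 (Ptgs2), chr6:116410071-116461178 (Alox5), chr6:65117293-65144981 (Hpgds) and chr11:50236461-50238532 (Ltc4s) in the same build.

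Ptgs2, which encodes the inducible cyclooxygenase 2, was far lower in MDSC than in the 4 spleen-derived groups. Its signal was 6.26, 5.49 and 5.57 log2 on the MDSC arrays, between 9.95 and 10.03 on the 3 RB arrays, and 9.13, 8.91 and 9.24 on the GFW arrays. On the GFE arrays it was 9.37, 9.45 and 9.39, and on the GFK arrays it was 9.37 each time. Every MDSC array lay below every other array. The MDSC mean (5.77 ± 0.42, SD, n = 3) was 18.6-fold below RB (9.99 ± 0.04), a difference of -4.22 log2 (SE 0.16, limma adjusted p = 6.92e-12), 9.99-fold below GFW (adjusted p = 7.42e-11) and 12.4-fold below GFE (adjusted p = 3.88e-11). Among the spleen cells, RB exceeded GFW by 0.90 log2 (1.86-fold, adjusted p = 2.15e-04) and exceeded GFE, its neighbour in the order of means, by 0.59 log2 (adjusted p = 0.00493). The uncultured and cultured cells of one prefix did not differ beyond the test's threshold. GFE minus GFW was 0.31 log2 (95% interval -0.03 to 0.65, adjusted p = 0.0929), and GFK minus GFW was 0.27 (-0.06 to 0.61, adjusted p = 0.547), although in both the 3 arrays lay above all 3 GFW arrays. The first of these passed when each array was centred on its median (0.45 log2, adjusted p = 0.0256). The monocyte markers were also highest in RB, by the values given above, and their mean lay between 7.23 and 7.31 log2 in MDSC, 7.74 and 7.81 in GFW, 7.94 and 8.15 in GFK and 6.55 and 6.68 in GFE. Their part in the Ptgs2 result was not tested.

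Ptges, the inducible prostaglandin E synthase, showed no difference that passed in any of the 6 main comparisons. Its signal was 6.14 ± 0.15 in MDSC, 6.33 ± 0.23 in RB, 6.11 ± 0.12 in GFW, 6.11 ± 0.05 in GFK and 5.92 ± 0.07 in GFE (SD, n = 3). It was dim in every group, at percentiles from 50.9 in GFE to 59.6 in RB, not far above the filter for testing. The 95% interval of MDSC minus GFW ran from -0.24 to 0.29 log2 and that of MDSC minus RB from -0.45 to 0.07. Without RB replicate 1, RB minus GFW was 0.35 log2 (limma adjusted p = 0.0229) and MDSC minus RB was -0.33 (adjusted p = 0.0338), so both passed when that array was left out. For MDSC minus GFW and MDSC minus RB, Ptgs2 differed by -3.32 and -4.22 log2.

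Hpgds, the haematopoietic prostaglandin D synthase, ran the other way to Ptgs2 in MDSC. Its signal was 8.73, 8.77 and 9.10 log2 on the MDSC arrays, 7.86, 7.91 and 8.0 on the GFE arrays, 6.72, 6.29 and 6.76 on the GFK arrays, 6.36, 6.64 and 6.32 on the GFW arrays and 6.12, 5.61 and 6.22 on the RB arrays. The MDSC arrays did not overlap any other group, and the GFE arrays lay between them and the 9 arrays of uncultured spleen cells. MDSC exceeded RB by 2.88 log2 (7.38-fold, SE 0.17, limma adjusted p = 1.04e-09), GFW by 2.43 (5.37-fold) and GFE by 0.94 (1.92-fold, adjusted p = 3.43e-04). After culture with SCF and Flt3 ligand it was 1.49 log2 above GFW (2.80-fold, SE 0.17, adjusted p = 1.16e-06). RB lay 0.46 log2 below GFW (-0.46, adjusted p = 0.0333), a call lost without RB replicate 2 (-0.27, adjusted p = 0.174), without GFW replicate 2 (-0.36, adjusted p = 0.13) and with median-centred arrays (-0.40, adjusted p = 0.0739).

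Ltc4s, which makes leukotriene C4, was, like Hpgds, highest in MDSC, next in GFE and lowest in RB, although it belongs to the other branch. Its signal was 8.04, 7.78 and 7.99 log2 in MDSC, 7.16, 7.15 and 6.98 in GFE, 6.39, 6.30 and 6.46 in GFW, 6.69, 6.17 and 6.19 in GFK and 6.06, 5.87 and 5.84 in RB. MDSC lay 4.04-fold above RB (2.02 log2, SE 0.14, limma adjusted p = 5.55e-09), 2.94-fold above GFW (1.56 log2, adjusted p = 6.62e-08) and 1.79-fold above GFE (0.84 log2, adjusted p = 1.34e-04). GFE exceeded GFW by 0.72 log2 (1.65-fold, adjusted p = 2.45e-04), with no overlap, and RB lay 0.46 log2 below GFW (-0.46, adjusted p = 0.0108).

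Markers of mast cells, basophils and eosinophils, cells known to express Hpgds or Ltc4s, were higher in MDSC in part. Of 6 tested mast cell and basophil markers, MDSC minus RB called 4 higher (Cpa3, Mcpt8, Gata2 and Kit) and 1 lower (Hdc), MDSC minus GFE 3 higher and 2 lower, and MDSC minus GFW 2 higher (Cpa3 and Mcpt8) and 3 lower (Hdc, Gata2 and Kit). The mast cell protease genes Cma1, Tpsb2 and Mcpt4 and the high-affinity IgE receptor genes Ms4a2 and Fcer1a were near background in all 5 groups. Over all 11, the mean lay between 5.64 and 5.77 log2 in MDSC, 5.63 and 5.70 in GFE, 6.00 and 6.23 in GFW, 6.12 and 6.46 in GFK, and 5.14 and 5.22 in RB. Of 6 tested eosinophil markers, 4 were higher in MDSC than in RB (Epx, Prg2, Prg3 and Ear6) and none lower, and 5 were higher than in GFE and none lower. Against GFW the same 4 were higher and 2 lower (Siglecf and Ccr3). Prg2, the major basic protein, differed by 3.28 log2 there (limma adjusted p = 4.21e-08). Cpa3, Epx, Prg3 and Ear6 were near background in RB, GFW and GFE, so they could hardly be called lower in MDSC. Cpa3 and Ear6 met the filter for testing only through MDSC. Among all genes tested, MDSC minus RB called 27.4% higher and 20.7% lower. These shares were 16.6% and 18.9% for MDSC minus GFE, and 32.3% and 30.0% for MDSC minus GFW. Over the 7 measured eosinophil markers, the mean lay between 5.88 and 6.19 in MDSC, 4.73 and 4.90 in GFE, 5.75 and 5.83 in GFW, 6.09 and 6.24 in GFK, and 4.75 and 4.89 in RB. In GFE, where Hpgds and Ltc4s also rose, no eosinophil marker was called higher than in GFW, and of the mast cell list only the transcription factor gene Gata2 was. The part of such cells in the 2 genes was not tested.

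Alox5, the 5-lipoxygenase that starts leukotriene synthesis, changed more than any other member measured. Its signal was 11.25, 11.22 and 11.19 log2 on the GFW arrays and 6.30, 6.02 and 6.28 on the GFE arrays. It was 11.02, 11.03 and 10.94 in GFK, 10.41, 10.38 and 10.55 in MDSC and 8.91, 9.25 and 8.11 in RB. The 5 groups did not overlap, and RB was the most scattered (SD 0.58). After culture it lay 32.4-fold below GFW (-5.02 log2, SE 0.20, limma adjusted p = 5.56e-12). RB lay 5.51-fold below GFW (-2.46 log2, adjusted p = 6.14e-08), and MDSC lay 3.23-fold above RB (1.69 log2, adjusted p = 2.97e-06) but 1.71-fold below GFW (-0.77 log2, adjusted p = 0.00327). Against GFE, MDSC was 19.0-fold higher (4.25 log2, adjusted p = 8.96e-11). GFK minus GFW was -0.22 log2 (95% interval -0.65 to 0.20, adjusted p = 0.747).

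The second Alox5 probe set gave the same directions. It read 10.38, 10.29 and 10.23 in GFW and 4.58, 5.12 and 5.34 in GFE, a difference of -5.28 log2, with -2.94 for RB minus GFW, -1.25 for MDSC minus GFW and 1.69 for MDSC minus RB. The mean of the 10 neutrophil markers had the same order of groups as Alox5, with GFW and GFK highest, then MDSC, then RB, and GFE lowest. Single markers departed from that order. For MDSC minus GFW 3 were called higher (Ltf, Ngp and Camp) and 6 lower. For MDSC minus RB 6 were called higher and 3 lower (Mmp9, Retnlg and Csf3r). Among all genes tested, MDSC minus GFW called 32.3% higher and 30.0% lower, and MDSC minus RB 27.4% and 20.7%. These shares were 35.1% and 31.9% for GFE minus GFW. All 10 of these markers were lower in GFE than in GFW, with a median of -6.44 log2, and 4 of them (Retnlg, Camp, Stfa1 and Il1f9) were near background in GFE. Their part in the Alox5 result was not tested.

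Alox5ap, which encodes the 5-lipoxygenase activating protein FLAP, moved with Alox5 after culture but by less. Its signal was 12.76, 12.81 and 12.80 log2 in GFW, 12.85, 12.75 and 12.67 in GFK, 12.28, 12.34 and 12.26 in RB, 11.86, 11.76 and 11.86 in MDSC and 11.02, 11.08 and 10.87 in GFE. GFW and GFK overlapped, and the other groups each stood apart. After culture it lay 1.80 log2 below GFW (-1.80, 3.49-fold, SE 0.09, limma adjusted p = 1.23e-10), and GFE still lay in the top few percent of probe sets of its arrays (percentile 98.5). RB lay 0.50 log2 below GFW (-0.50, adjusted p = 3.82e-04). MDSC lay below RB (-0.47 log2, adjusted p = 6.19e-04) and GFW (-0.97, adjusted p = 2.19e-07) and above GFE (0.84, adjusted p = 2.65e-06), so Alox5 and its partner differed in sign between MDSC and RB. The second Alox5ap probe set gave -1.81 for GFE minus GFW and -0.57 for MDSC minus RB.

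Alox15 was dim everywhere, and its differences were small. Its signal was 6.35, 6.31 and 6.41 log2 in MDSC, 5.72, 5.92 and 6.19 in GFW, 6.03, 6.26 and 5.51 in GFK, 5.49, 5.67 and 5.48 in GFE and 5.09, 5.54 and 5.01 in RB. The RB mean lay at percentile 35.8 of its arrays, near background, so differences against RB are lower bounds. MDSC exceeded RB by at least 1.14 log2 (limma adjusted p = 6.88e-05) and GFE by 0.81 (adjusted p = 0.00214), and GFW exceeded RB by at least 0.73 (RB minus GFW -0.73, adjusted p = 0.00343). MDSC minus GFW was 0.42 (adjusted p = 0.0575) and did not pass, although the MDSC arrays lay above all GFW arrays. That difference passed without GFW replicate 3 (0.54, adjusted p = 0.0287) and with median-centred arrays (0.54, adjusted p = 0.016). GFE minus GFW was -0.39 (adjusted p = 0.0656), and passed without GFW replicate 1 (-0.51, adjusted p = 0.038).

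**Figure D2:**
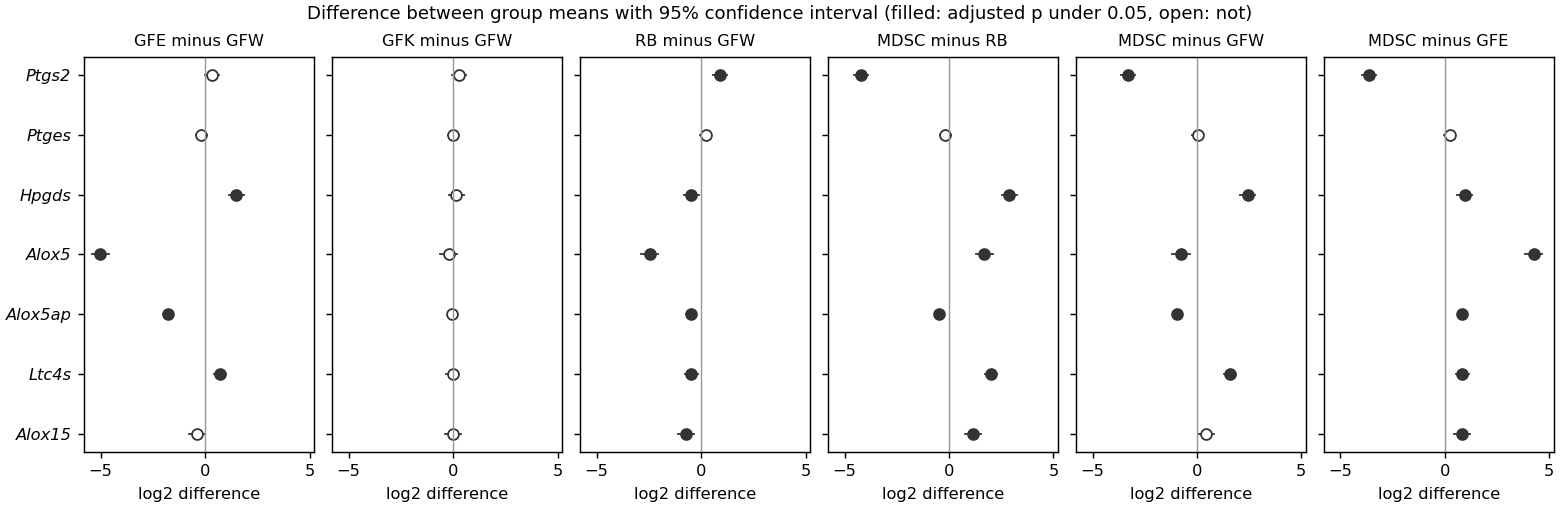
Difference between group means in log2 (horizontal axis) with its 95% confidence interval for the 7 genes (vertical axis) in 6 comparisons, with filled points for an adjusted p under 0.05 and open points for the rest. Alox5 has the widest spread of differences, from -5.02 for GFE minus GFW to 4.25 for MDSC minus GFE, and all 7 points are open for GFK minus GFW.

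Each comparison is read against the share of all 14822 genes that it called, since most compared very unlike cells. For culture (GFE minus GFW), 4 of the 7 members were called, Hpgds and Ltc4s higher and Alox5 and Alox5ap lower, where 67.0% of all genes were called, 35.1% higher and 31.9% lower, so the count itself is near the background. Of these calls over all genes 52.3% were higher, a share that became 63.8% with each array centred on its median, which shifted the median difference from -0.06 to 0.07 log2. The groups did not overlap for any of the 7 members in this comparison, nor for 74.2% of all genes. For the arrays labelled knockout (GFK minus GFW), none of the 7 was called by limma and none had an unadjusted p under 0.05, where 1.61% of all genes were called, 1.30% higher and 0.317% lower. Ptgs2 and Alox5 were the 2 members without overlap there, as were 16.2% of all genes.

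For RB minus GFW, 6 of 7 members were called, Ptgs2 higher and Hpgds, Alox5, Alox5ap, Ltc4s and Alox15 lower, against a background of 52.4% (25.8% higher and 26.5% lower). For MDSC minus RB, 6 were called, 4 higher (Hpgds, Alox5, Ltc4s and Alox15) and 2 lower (Ptgs2 and Alox5ap), against 48.1% (27.4% and 20.7%). For MDSC minus GFW, 5 were called, 2 higher (Hpgds and Ltc4s) and 3 lower (Ptgs2, Alox5 and Alox5ap), against 62.2% (32.3% and 30.0%). The higher calls made up 51.8% of the calls over all genes there, and 63.2% with median-centred arrays, where the median difference went from -0.08 to 0.04 log2. For MDSC minus GFE, 6 were called, with Ptgs2 the 1 lower and 5 higher, against 35.5% (16.6% and 18.9%). These comparisons share the GFW, RB, MDSC or GFE arrays and are not independent. Ptgs2 was lower in MDSC, and Hpgds and Ltc4s were higher, against each of the 3 groups compared.

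The order of the 5 groups was checked by testing each neighbouring pair of means, and 14 of the 28 steps over the 7 members passed. For Ptgs2 the order was RB, GFE, GFK, GFW and MDSC, and neither GFE and GFK nor GFK and GFW differed beyond the threshold. For Alox5 it was GFW, GFK, MDSC, RB and GFE, with only the first step not passed, and GFK exceeded MDSC by 0.55 log2 (limma adjusted p = 0.0256). Alox5ap had the order GFW, GFK, RB, MDSC and GFE, again with only the first step not passed. For Hpgds the step from GFE to GFK was 1.34 log2 (adjusted p = 3.87e-06), and GFK and GFW did not differ beyond the threshold. For Ltc4s the step from GFK to RB was 0.43 log2 (adjusted p = 0.0161). No step of Alox15 or Ptges passed. The pairs used only for these steps called 54.1% of all genes for RB minus GFE, 50.5% for RB minus GFK, 65.8% for GFK minus GFE and 60.9% for MDSC minus GFK.

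Genes with the most similar profile were found for the 6 members whose group means span at least 1 log2, by the root mean square (RMS) difference between centred log2 values over the 15 arrays, among 13490 genes. For Ptgs2 they were Cyria (0.35), Xaf1 (0.40) and Dpp4 (0.45), where the median over all genes was 1.56. The nearest profiles to Hpgds were those of the replication and mitosis genes Cdc45 (0.21) and Dlgap5 (0.23) and of the cytokine receptor gene Il1rl2 (0.22), against a median of 1.13. Alox5 was nearest to Tarm1 (0.38), the peptidoglycan recognition gene Pglyrp1 (0.43) and the chemokine gene Ccl2 (0.43), against a median of 1.92. The genes nearest to Alox5ap were Gyg, Stat6 and Ncf4, at 0.13 each (median 0.76). Those nearest to Ltc4s were Uaca (0.18), Stxbp5 (0.20) and Hemk1 (0.20), with a median of 0.80, and those nearest to Alox15 were Fam181b, Tent5c and Mfsd2a, at 0.19 each (median 0.58).

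The rest of the pathway was described from lists of 56 other genes, of which 50 had a probe set and 47 were tested. After culture 16 of the 47 were higher and 26 lower than in GFW, with a median of -0.47 log2 beside -0.06 for all genes tested. Of all genes tested, 35.1% were called higher and 31.9% lower there. For RB minus GFW 15 were higher and 14 lower (median -0.08, all genes -0.06). For MDSC minus RB 13 were higher and 16 lower (median -0.04, all genes 0.04), for MDSC minus GFW 14 and 21 (median -0.26, all genes -0.08), and for MDSC minus GFE 15 and 10 (median 0.17, all genes 0.00). Of all genes tested, RB minus GFW called 25.8% higher and 26.5% lower, and MDSC minus RB 27.4% and 20.7%. The shares were 32.3% and 30.0% for MDSC minus GFW, and 16.6% and 18.9% for MDSC minus GFE. Counts of single lists below stand beside the same shares. For GFK minus GFW 2 were higher and none lower (median 0.00, all genes -0.01), where 1.61% of all genes were called. At an unadjusted limma p under 0.05 were 7 of the 47. The share of all genes at that p was not determined, so these 7 are not read as an excess. The 2 were Prxl2b, a prostamide and prostaglandin F synthase (0.78 log2, limma adjusted p = 0.018), and Cysltr2, a cysteinyl leukotriene receptor (0.64, adjusted p = 0.0227). Both GFK and GFW were near background for Cysltr2 (percentiles 37.9 and 23.8), so its difference is not a bound. Cysltr2 was lost when any 1 array of GFK or GFW was left out, with an adjusted p of up to 0.0929. Prxl2b was lost without GFK replicate 2, without GFK replicate 3, and likewise without the first or the third GFW array, with an adjusted p of up to 0.0777.

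**Figure D3:**
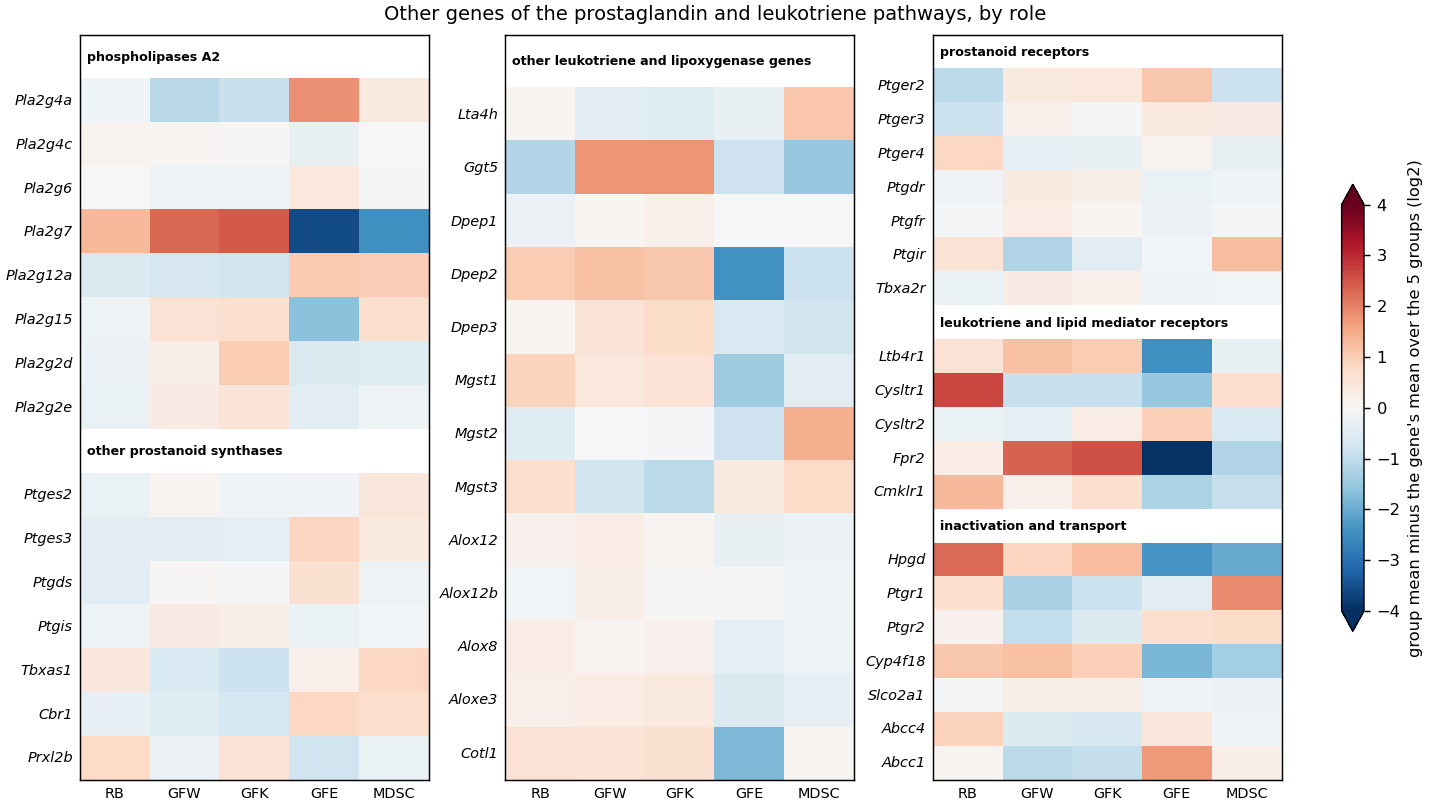
Group mean minus the mean of the 5 groups for each of the 47 tested genes of the pathway lists (colour, log2, red higher and blue lower, saturated beyond 4), with genes in rows by role and groups in columns. GFE is blue for Pla2g7, Dpep2, Ltb4r1, Fpr2 and Hpgd and red for Pla2g4a and Abcc1, and RB is red for Cysltr1 and Hpgd.

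The genes of the phospholipase A2 family, whose substrates differ, did not move as a block. Pla2g4a, the cytosolic phospholipase A2, was 10.14, 10.23 and 10.14 log2 in GFE against 7.23, 7.24 and 7.18 in GFW, higher by 2.95 log2 (7.74-fold, SE 0.16, limma adjusted p = 1.62e-10). It also rose in MDSC against GFW (1.50 log2) and in RB against GFW (0.94). In contrast Pla2g7, the secreted hydrolase of platelet-activating factor, fell from 11.29, 11.26 and 11.16 in GFW to 5.49, 5.07 and 5.42 in GFE, a change of at least -5.91 log2 (adjusted p = 1.31e-13). It was 4.79 log2 lower in MDSC than in GFW (-4.79, adjusted p = 2.62e-12). Lysosomal Pla2g15 was lower after culture (-2.23) and Pla2g12a higher (1.73). In all, 3 of the 8 tested phospholipases were higher and 5 lower in GFE than in GFW, and for MDSC minus RB 3 were higher (Pla2g4a, Pla2g12a and Pla2g15) and 1 lower (Pla2g7). Pla2g4a and Alox5 thus differed in sign after culture.

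Among the other prostanoid synthases, 4 of 7 were higher and 2 lower after culture, and 4 were higher and 1 lower in MDSC than in RB. Tbxas1, the thromboxane synthase, was 8.77, 8.81 and 8.69 log2 in MDSC, 8.33, 8.30 and 8.56 in RB and 7.25, 7.56 and 7.19 in GFW. It was higher in MDSC than in GFW by 1.42 log2 (limma adjusted p = 3.34e-08) and in RB than in GFW by 1.07 (adjusted p = 2.01e-06). Ptges3, a cochaperone also described as a cytosolic prostaglandin E synthase, was higher by 1.31 after culture and by 0.82 in MDSC than in RB. Cbr1, a carbonyl reductase that can convert prostaglandin E2 to prostaglandin F2alpha, was higher after culture by 1.31 and in MDSC than in RB by 1.03. Ptges2 was higher in MDSC than in RB by 0.72 log2 (adjusted p = 0.00245), while Ptges did not pass there.

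Downstream of Alox5, Lta4h and Mgst2 were higher in MDSC, as Ltc4s was. Lta4h, which makes leukotriene B4, was 10.02, 10.06 and 10.13 log2 in MDSC, against 9.16, 9.19 and 8.76 in RB, 8.58, 8.49 and 8.56 in GFW and 8.78, 8.74 and 8.45 in GFE. MDSC exceeded each of these groups, by 1.03, 1.53 and 1.42 log2 (limma adjusted p = 1.01e-05, 8.04e-08 and 4.67e-07). GFE and GFW did not differ in it beyond the threshold (0.11, adjusted p = 0.475). Mgst2, a microsomal glutathione transferase that can make leukotriene C4, followed Ltc4s in MDSC, higher than RB by 1.88 and than GFE by 2.24, but not after culture, where it was 0.81 log2 lower than in GFW (-0.81). Mgst3 was higher in RB than in GFW by 1.51.

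Of the 4 tested peptidase genes that trim leukotrienes C4 and D4 or belong to their families, Ggt5, Dpep2 and Dpep3 were lower in MDSC and in cultured cells than in GFW. The other, Dpep1, did not pass, at -0.09 log2 for GFE minus GFW and -0.06 for MDSC minus GFW. Ggt5, which turns leukotriene C4 into leukotriene D4, was 9.20, 8.93 and 9.16 log2 in GFW and 6.72, 6.41 and 6.35 in GFE (-2.60, limma adjusted p = 1.72e-10). It was also lower in RB (-2.95) and MDSC (-3.29) than in GFW. Dpep2, which makes leukotriene E4, fell from 10.45, 9.66 and 10.30 in GFW to 6.85, 6.38 and 6.46 in GFE (-3.57, adjusted p = 1.54e-08) and was lower in MDSC than in RB (-1.87). Cotl1, a 5-lipoxygenase binding protein, fell by 2.35 log2 after culture (-2.35). Of the 13 tested genes of this list, 1 was higher and 9 lower after culture, 3 higher and 1 lower for RB minus GFW, and 3 higher and 7 lower for MDSC minus GFW. Among those lower after culture, Dpep3, Alox12, Aloxe3 and Alox8 were near background in GFE, and Alox8 also in GFW. Dpep3, Alox12 and Aloxe3, lower in MDSC than in GFW, were near background in MDSC too.

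Genes that inactivate or export these mediators were called in 7 of 7 cases after culture, 4 higher and 3 lower, and 5 of them were higher and none lower in RB than in GFW. Of all genes tested, these comparisons called 67.0% and 52.4%. Hpgd, the 15-hydroxyprostaglandin dehydrogenase that begins prostaglandin breakdown, was 9.31, 9.32 and 10.24 log2 in RB, 8.11, 8.05 and 8.44 in GFW, 5.67, 5.09 and 5.19 in MDSC and 5.47, 4.42 and 5.05 in GFE. MDSC and GFE were near background, so it was lower in MDSC than in RB by at least 4.30 log2 (-4.30, limma adjusted p = 2.06e-09) and in GFE than in GFW by at least 3.22 (-3.22, adjusted p = 3.02e-08). RB exceeded GFW by 1.42 (adjusted p = 3.90e-04). Ptgs2 and Hpgd were thus both low in MDSC, whereas in GFE only Hpgd was. The prostaglandin reductase gene Ptgr1, which also inactivates leukotriene B4, was higher in MDSC than in GFW by at least 3.18 log2 and than in RB by 1.20, and Ptgr2 by 1.74 and 0.56. Cyp4f18, the neutrophil omega-hydroxylase of leukotriene B4, was lower in GFE (-2.99) and MDSC (-2.54) than in GFW. The exporters Abcc1 and Abcc4, which carry leukotriene C4 and prostaglandins out of cells, were both higher in GFE than in GFW, by 2.77 (adjusted p = 2.31e-11) and 1.02, and in RB than in GFW, by 1.14 and 1.46.

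Of the 3 tested EP receptors for prostaglandin E2, RB minus GFW called Ptger4 higher and Ptger2 and Ptger3 lower. Ptger2 was 6.31, 6.18 and 6.08 log2 in RB and 7.55, 7.79 and 7.61 in GFW, a difference of -1.46 (limma adjusted p = 1.01e-07), while Ptger4 was 8.24, 8.06 and 8.05 in RB and 7.02, 6.72 and 6.97 in GFW, a difference of 1.21 (adjusted p = 1.85e-06). Ptger3 differed by -1.06 (adjusted p = 1.00e-04) and was higher in MDSC than in RB by 1.19 (adjusted p = 2.75e-05). After culture Ptger2 and Ptger4 were higher than in GFW, by 0.67 and 0.51, and Ptger3 did not pass (0.19, adjusted p = 0.331). MDSC held less Ptger4 than RB (-1.12), and Ptger2 did not differ between these beyond the threshold (0.20, adjusted p = 0.211). Ptgir, the prostacyclin receptor, was 9.34, 9.27 and 9.31 in MDSC, 8.76, 8.25 and 8.87 in RB and 6.86, 6.60 and 7.08 in GFW, higher in MDSC than in GFW by 2.46 (adjusted p = 1.36e-08). All 7 tested prostanoid receptors were called for RB minus GFW, 2 higher and 5 lower, where 52.4% of all genes were called.

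Receptors of leukotrienes and related lipids were mostly lower in GFE than in GFW and in MDSC than in RB. Ltb4r1, the high-affinity leukotriene B4 receptor, was 9.52, 9.53 and 9.74 log2 in GFW and 6.13, 5.67 and 6.13 in GFE, a fall of 3.62 (-3.62, limma adjusted p = 9.02e-12), and was lower in MDSC than in RB (-0.89). Fpr2, a formyl peptide and lipoxin receptor, was 11.87, 11.74 and 11.81 in GFW and 5.46, 6.84 and 4.20 in GFE (-6.31, adjusted p = 3.73e-09), and differed by -6.98 without GFE replicate 2 and by -5.66 without GFE replicate 3. Cysltr1, the high-affinity cysteinyl leukotriene receptor, was 8.27, 7.93 and 7.98 in RB, 5.79, 6.23 and 6.11 in MDSC and 4.50, 4.47 and 4.49 in GFW. RB exceeded GFW by at least 3.57 (adjusted p = 4.81e-11) and MDSC by 2.02. Cysltr2 was higher in GFE than in GFW by at least 1.30. Cmklr1, a resolvin and chemerin receptor, was lower in MDSC than in RB (-2.22). Of the 5 tested, 1 was higher and 4 lower after culture, and 4 were lower and none higher in MDSC than in RB. Cysltr1, among the 4 lower after culture, was near background in both GFE and GFW (percentiles 10.9 and 18.2).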

How the data were processed

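RNA (6 ug of total RNA per sample, per the labels' protocols) of 15 mouse myeloid samples was read on single-colour Affymetrix arrays. The deposited values are log2 signals made by the authors with RMA in oligo, per the submitters' processing notes, with versions not given in the sources used here. They ranged from 2.21 to 14.07, with array medians of 5.52 to 5.72, and no 2 arrays were identical. Of 41345 probe sets, 23521 carry 1 gene symbol, 1814 several and 16010 none in the platform annotation, and 23328 of the first matched a RefSeq gene. The probe set with the highest mean stood for each of the 1082 genes with more than one.

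For a gene to be tested, 3 or more arrays had to show it above their 40th percentile, a value of 5.34 to 5.58 log2, and 14822 of 22180 genes met this. Where only the lower group's mean lay under that percentile, a difference is given as a lower bound ("at least"). That wording concerns the dim signal and not the sampling error of the estimate. Where both means lay under it, a difference is not a bound. The differences came from 1 limma fit (version 3.58.1, R 4.3.3) of all 15 arrays on the 5 groups, with eBayes moderation (residual df 10, prior df 5.33), and Benjamini-Hochberg adjustment over all genes tested, called at an adjusted p under 0.05. Standard errors and 95% intervals are the moderated ones of that fit, which was tested on simulated data. The number of arrays limits the precision.

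The members, the pathway and marker lists and the tests were chosen with earlier results of these data known. Genes named are the members, called genes of the pathway lists with up to 3 uncalled ones per list, the 3 nearest profiles per member whose group means span at least 1 log2, and called markers. Named outside this rule, after their values were seen, are Nos2, markers near background and the genes of the closing section. Alternatives changed the scaling, the filter, the probe set rule, the arrays fitted, the moderation and the replicate block, or left out single arrays. Their use on the pathway genes, and the second probe sets, were chosen after seeing the data.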

Additional observations from a re-analysis of the deposited data

How the results depend on the processing

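Over all alternatives, the counts of members called stayed at 4 to 6 of 7 for GFE minus GFW, 0 for GFK minus GFW, 5 to 7 for RB minus GFW and for MDSC minus RB, and 5 to 6 for MDSC minus GFW and for MDSC minus GFE, and 12 to 16 of the 28 steps between neighbouring groups passed. Of 3164 values of single genes under an alternative, 3044 kept direction and side of the threshold, 99 lost their call, 9 gained one and 12 changed sign. Genes of the pathway and closing lists entered this tally only where the main fit called them, so only members could gain a call. The sign changes were all of members not called. With each array minus its median, Ptges and Alox15 gave 0.01 and 0.01 log2 for GFK minus GFW. Leaving out single arrays gave ranges of -0.06 to 0.06 for Ptges, -0.20 to 0.06 for Ltc4s, -0.08 to 0.00 for Alox5ap and -0.17 to 0.20 for Alox15 in GFK minus GFW, and -0.05 to 0.10 for Ptges in MDSC minus GFW. The other pathway genes called for GFK minus GFW were 4 with trend and robust moderation, 1 with only the 6 arrays compared and 0 to 2 without single arrays, and the cause was not tested. With the replicate block the members called were 4, 0, 6, 6, 5 and 6 in the order of comparisons GFE minus GFW, GFK minus GFW, RB minus GFW, MDSC minus RB, MDSC minus GFW and MDSC minus GFE, as without it. Deviations from the group means correlated between -0.13 and 0.10 (median 0.01) over the 30 same-number pairs of arrays. Over the 60 different-number pairs they correlated between -0.12 and 0.12 (median 0.00). Such values cannot show whether samples of the same number were prepared together. Genes near background, here Alox15 in RB, have only bounds, and Ptgs1 has no level.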

Other observations

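Genes listed for activating arachidonic acid and putting it back into phospholipids, chosen after values were seen and given as a description, differed between the groups as well. Lpcat2, whose enzyme has a part in making platelet-activating factor, averaged 10.14 log2 in GFW and 10.13 in GFK, against 7.99 in RB, 7.15 in MDSC and 7.01 in GFE. The difference was -3.14 for GFE minus GFW (limma adjusted p = 2.23e-11), -3.00 for MDSC minus GFW and -2.15 for RB minus GFW. Mboat7, which puts arachidonate into phosphatidylinositol, lay at 9.31 in GFW and between 7.55 and 7.79 in GFE, MDSC and RB. Acsl4, which activates arachidonic acid to its CoA ester, ran the other way, with 7.30 in GFW, 8.22 in RB, 8.87 in GFE and 8.94 in MDSC. Of the 6 tested genes of this list, 4 were higher and 2 lower in GFE than in GFW, and 3 were higher and 2 lower in MDSC than in GFW. Among all genes tested, GFE minus GFW called 35.1% higher and 31.9% lower, and MDSC minus GFW 32.3% and 30.0%.

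Mgll, the monoacylglycerol lipase that frees arachidonic acid from an endocannabinoid, was highest in MDSC, at 8.32 log2 against 5.48 in RB, 6.02 in GFW, 6.10 in GFK and 6.03 in GFE. MDSC exceeded RB by 2.84 (limma adjusted p = 3.01e-11), GFW by 2.30 and GFE by 2.29. Daglb, a diacylglycerol lipase that makes that endocannabinoid, averaged 7.12 in MDSC, 8.65 in RB, 7.98 in GFW, 7.63 in GFK and 6.35 in GFE. It was lower in MDSC than in RB (-1.53) and in GFE than in GFW (-1.64). Of the 6 tested genes of this second list, also chosen after values were seen, 3 were higher and 1 lower in MDSC than in RB, and none was higher and 2 lower in GFE than in GFW. Among all genes tested, MDSC minus RB called 27.4% higher and 20.7% lower, and GFE minus GFW 35.1% and 31.9%.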
